A study of Mus musculus with 8 samples.

Results

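The enzymes and transporters that carry glucose to pyruvate, lactate and pentose phosphates were followed in RAW264.7 cells, a mouse macrophage-like tumour line, after treatment with recombinant FSTL1 (rFSTL1) or with PBS. FSTL1, follistatin-like 1, is a secreted glycoprotein. The set held 38 genes of the 22013 in the deposited table. They were taken by symbol from a list of glucose and lactate transporters, glycolytic enzymes, kinases and phosphatases that set glycolytic flux, pyruvate dehydrogenase subunits and pentose phosphate enzymes. There were 4 libraries of bulk poly(A) RNA in each group. The labels gave PBS as the treatment of the controls, and rFSTL1 as that of the treated cells, at 100 ng/mL for 24 h by the study's methods. All 8 libraries came from the same line, and no source said that those of a group came from separate cultures, so p-values measure the spread between libraries, which may be technical.

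Glycolysis splits a glucose molecule into pyruvate in the cytosol. The hexokinase, phosphofructokinase and pyruvate kinase steps are close to irreversible and carry most of the control, together with uptake through GLUT transporters. Pyruvate is reduced to lactate and exported through monocarboxylate transporters, or enters mitochondria and is oxidised by the pyruvate dehydrogenase complex, which pyruvate dehydrogenase kinases switch off. The pentose phosphate branch leaves at glucose 6-phosphate and supplies NADPH and ribose. Inflammatory macrophages are known for a high glycolytic rate, and many glycolytic genes are known targets of hypoxia-inducible factors.

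Library totals ran from 15183112 to 20234472 counts under PBS and from 15062026 to 19260966 counts under rFSTL1. All 8 macrophage markers examined (Adgre1, Cd68, Csf1r, Itgam, Lyz2, Ptprc, Spi1 and Fcgr1) had at least 10 counts in every library, and their summed level was 3892 to 4062 CPM (counts scaled by the library's normalized total) under PBS and 3875 to 4084 CPM under rFSTL1. The summed level was at most 0.0607 CPM for the 5 T or B cell markers under PBS and 0.157 CPM under rFSTL1, with 3 of them at 0 everywhere. It was at most 0.850 and 0.0668 CPM for 4 fibroblast markers (1 at 0 everywhere), 1.09 and 0.869 CPM for 3 endothelial markers, and 0 and 0.308 CPM for 4 epithelial markers (2 at 0 everywhere). None of the 8 macrophage markers was called between the groups, and the markers of the other cell types were too low to be tested. In bulk RNA a lower level cannot be told apart from fewer cells that carry the RNA.

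Of the 38 genes, 37 passed the expression filter and were tested. Lactate dehydrogenase B (Ldhb) was the exception, with 4, 1, 0 and 0 counts in PBS 1 to 4 and 0 counts in each rFSTL1 library. A count of 0 over the rFSTL1 libraries allows up to 0.0430 CPM, and counting error alone is covered by that limit.

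Under rFSTL1, 5 genes of the set rose. They are Slc2a1, a glucose transporter, Pfkl and Pfkp, subunits of phosphofructokinase, Pfkfb3, which makes the activator of that enzyme, and Eno2, an enolase. They were called at an adjusted p under 0.05 (edgeR's quasi-likelihood test, Benjamini-Hochberg adjustment over all genes tested). That is 13.5% of the 37 tested, against 0.326% of all 10748 genes tested that were called and higher. Every called gene of the set was higher under rFSTL1. So were 35 of the 37 genes called among all 10748, so this direction is not particular to the set. At an adjusted p under 0.1 the count was 12 genes (32.4%), against 1.03% of all genes, and it added Slc16a3, Hk2, Gpi1, Aldoa, Tpi1, Gapdh and Pgk1. The sizes were modest, from 1.19-fold for Pfkl to 1.32-fold for Eno2 among the 5 called.

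Without any threshold, 31 of 37 genes (83.8%) had a positive log2 fold change, against 52% of all genes tested. The median log2 fold change was 0.13 (range -0.14 to 0.40), against 0.00582 over all genes tested. Every rFSTL1 library lay above every PBS library for 17 genes (45.9%), against 4.63% of all genes. The opposite held for 1 gene, the pyruvate dehydrogenase subunit Pdha1 (2.70%), against 3.53% of all genes. After a trend with transcript length and GC content was removed from each library, the median of the set was 0.0678 and that of all genes -0.0077, while 29 of the 37 genes were positive (46.3% of all genes) and 11 were called (0.586% of all genes were called and higher). With the trend taken out, 13 of the 37 values were smaller by over 1.5 times (Slc16a1, Hk1, Hk3, Aldoa, Tpi1, Pgam1, Eno1, Pkm, Ldha, Pdk2, Pgls, Tkt and Rpe), 3 were larger by as much (Slc2a3, Pfkfb4 and G6pdx) and 4 turned sign (Pfkm, Eno3, Pfkfb2 and Taldo1). The 5 called genes stayed within 1.5 times.

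**Figure D1:**
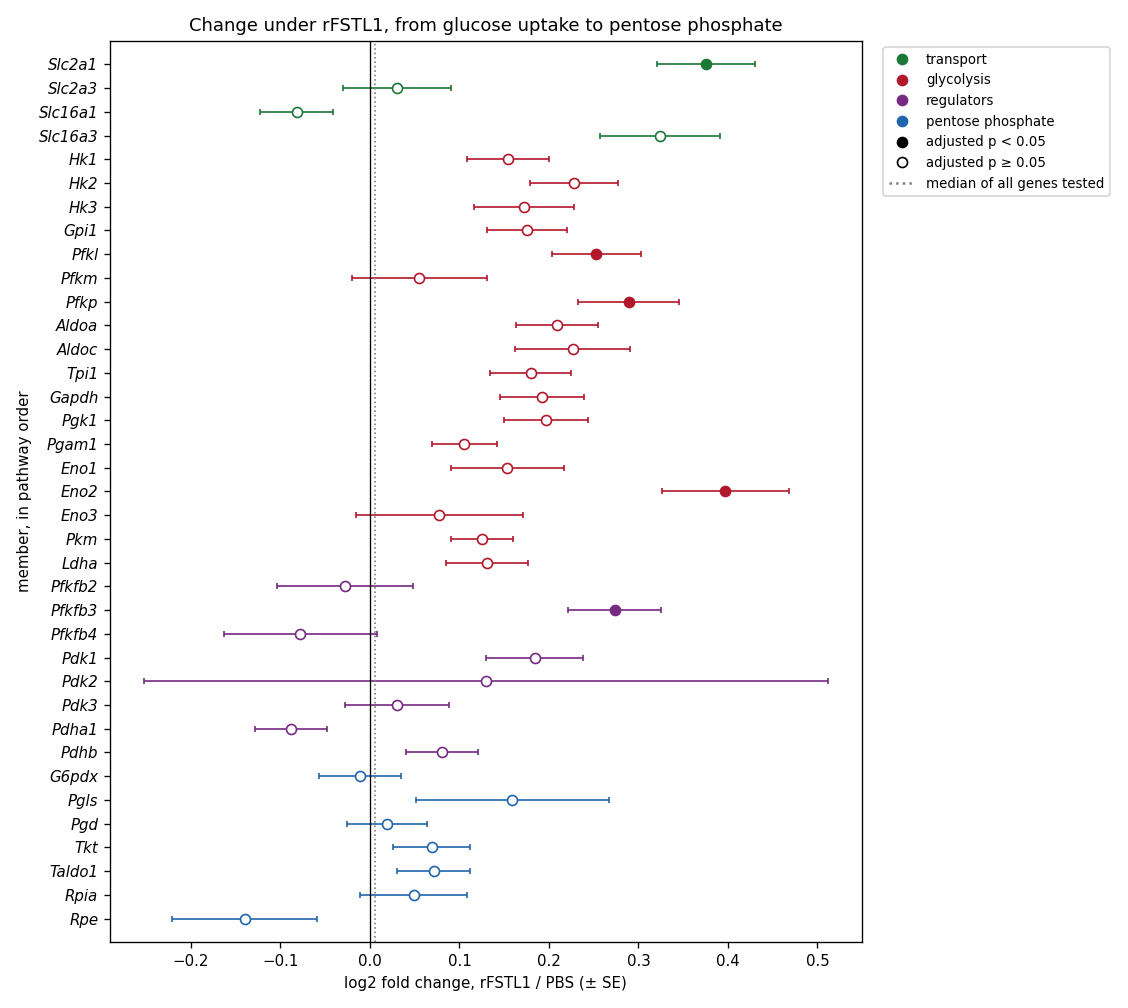
Log2 fold change of rFSTL1 over PBS (x axis, with its standard error) for the 37 genes tested, in pathway order from top to bottom and coloured by branch; filled points had an adjusted p under 0.05. All 18 glycolytic enzymes lie to the right of 0 (Pfkm and Eno3 do not once a trend with length and GC content is taken out), and the 5 filled points lie between 0.25 and 0.40.

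The groups of genes differed in how many members passed. Of the 18 glycolytic enzymes tested, 3 were called (16.7%, against 0.326% of all genes), 9 had an adjusted p under 0.1 (50%, against 1.03%), and in 12 every treated library lay above every control (66.7%, against 4.63%). All 18 had a positive fold change, with a median of 0.18, though Pfkm (-0.0114) and Eno3 (-0.0076) turned negative once the trend with transcript length and GC content was taken out, and the median was then 0.1061. Of the 4 transporters 1 was called, with a median of 0.18. Of the 8 flux regulators and pyruvate dehydrogenase subunits 1 was called, with a median of 0.06. That median turned sign with either of 2 libraries left out, at -0.0145 without PBS 3 and -0.003 without rFSTL1 3, and was 0.0252 at a minimum count of 30 and 0.0322 with the trend taken out. None of the 7 pentose phosphate enzymes was called by edgeR, none had an unadjusted p under 0.05, and DESeq2 and limma voom called none. The median of these enzymes was 0.05, and 0.0119 with the trend taken out. The difference between these branches was not tested.

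The glycolytic enzymes together took 2.31% ± 0.0856 (SD, n = 4) of all counts under PBS, with a range of 2.21 to 2.42%. They took 2.58% ± 0.115 (n = 4) under rFSTL1, with a range of 2.49 to 2.73%, so the groups did not overlap. The pentose phosphate enzymes took 0.142% ± 0.00294 under PBS and 0.146% ± 0.00723 under rFSTL1, with overlapping ranges of 0.139 to 0.145% and 0.139 to 0.156%.

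Single libraries moved many genes of the set together. PBS 4 was the lowest PBS library for 21 of the 37 genes and for all 5 that were called. The library rFSTL1 4 was the highest treated library for 20 genes. The median deviation of the 37 genes from the PBS mean, on the log2(CPM + 1) scale, was 0.0589 in PBS 1, -0.0005 in PBS 2, 0.0082 in PBS 3 and -0.0449 in PBS 4. It was 0.104, 0.0818, 0.129 and 0.164 in rFSTL1 1 to 4, so all treated libraries lay above all controls. Without PBS 4, the median log2 fold change of the set was 0.13, and 31 of 37 genes were positive. Slc2a1 was then the 1 gene of the set still called, as it also was without PBS 2, without PBS 3 or without rFSTL1 3. Without rFSTL1 2, 10 genes of the set were called. The calls over all genes moved as well, with 0.102%, 0.112%, 0.111% and 0.139% of all genes called and higher without PBS 2, PBS 3, PBS 4 and rFSTL1 3, and 0.536% without rFSTL1 2.

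**Figure D2:**
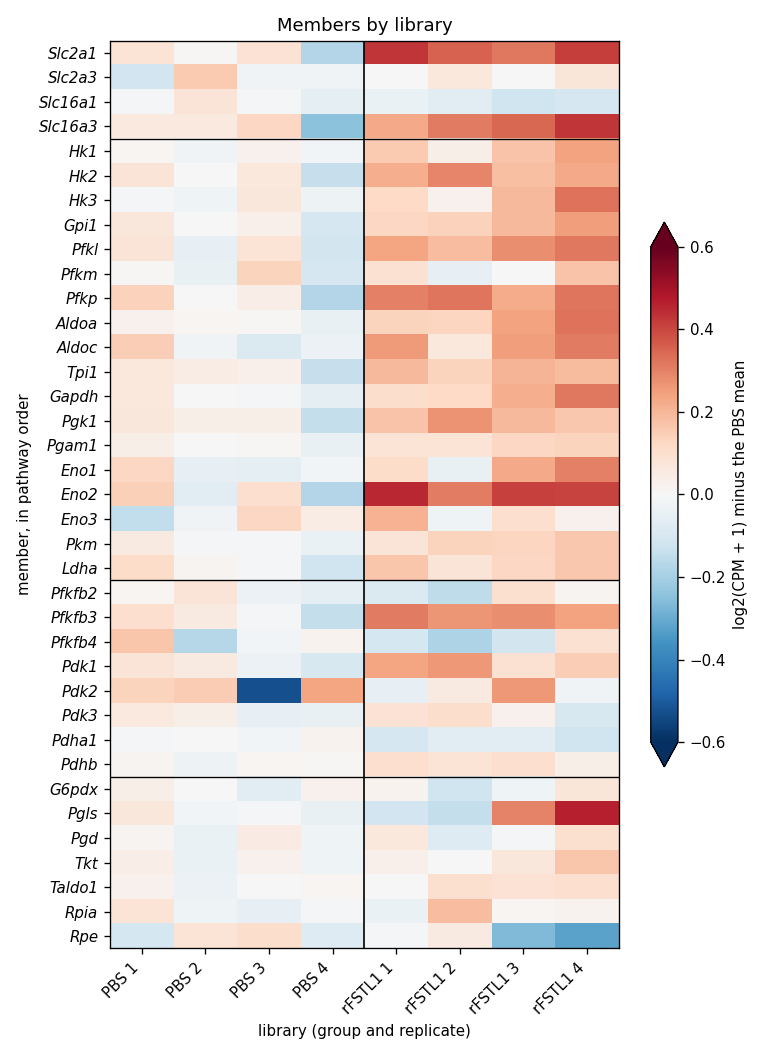
Level of each of the 37 genes in each of the 8 libraries, as log2(CPM + 1) minus the mean of the PBS libraries; red is higher, blue lower, and horizontal lines part the 4 branches. The colours of most glycolytic enzymes turn red in all rFSTL1 libraries, and PBS 4 is the lowest control for 21 genes.

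The promoters of the 5 called genes, and of Ldha, were read for the core letters of the hypoxia response element, ACGTG and GCGTG, since this element is the textbook binding sequence behind many glycolytic promoters. The windows are the 250 bases before the annotated start, from RefSeq on GRCm38.p6, where 37 of the 38 genes had an entry and Slc2a3 had none in the table. Each is written 5′ to 3′ on the gene's own strand, with matches on either strand in capitals. Ldha is shown for the 5 matches of its upstream window, the most of the windows printed here, though it did not pass the test. The other of its 2 windows, with 1 GCGTG and no ACGTG, is not printed.
Slc2a1, chr4:119108495-119108744, plus strand: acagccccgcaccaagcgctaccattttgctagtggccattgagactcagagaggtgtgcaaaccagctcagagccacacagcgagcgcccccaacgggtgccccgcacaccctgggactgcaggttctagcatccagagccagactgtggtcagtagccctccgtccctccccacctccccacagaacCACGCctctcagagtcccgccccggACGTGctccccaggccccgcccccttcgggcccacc
Pfkl, chr10:78009808-78010057, minus strand: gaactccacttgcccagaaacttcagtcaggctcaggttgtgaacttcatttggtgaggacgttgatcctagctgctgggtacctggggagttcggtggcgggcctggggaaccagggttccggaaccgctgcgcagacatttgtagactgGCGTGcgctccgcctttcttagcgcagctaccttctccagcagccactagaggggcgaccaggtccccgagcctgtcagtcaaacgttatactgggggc
Pfkp, chr13:6648772-6649021, minus strand: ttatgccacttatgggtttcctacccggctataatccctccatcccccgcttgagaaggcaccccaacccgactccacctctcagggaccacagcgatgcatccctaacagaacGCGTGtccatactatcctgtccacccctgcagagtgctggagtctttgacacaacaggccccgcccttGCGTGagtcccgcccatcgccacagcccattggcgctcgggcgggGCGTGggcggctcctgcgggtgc
Eno2, chr6:124769674-124769923, minus strand: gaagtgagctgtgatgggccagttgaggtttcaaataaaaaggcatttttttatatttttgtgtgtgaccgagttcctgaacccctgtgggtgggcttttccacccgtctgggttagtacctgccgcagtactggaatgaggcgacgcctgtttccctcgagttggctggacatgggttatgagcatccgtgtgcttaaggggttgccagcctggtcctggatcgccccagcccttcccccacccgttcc
Pfkfb3, upstream start, chr2:11553930-11554179, minus strand: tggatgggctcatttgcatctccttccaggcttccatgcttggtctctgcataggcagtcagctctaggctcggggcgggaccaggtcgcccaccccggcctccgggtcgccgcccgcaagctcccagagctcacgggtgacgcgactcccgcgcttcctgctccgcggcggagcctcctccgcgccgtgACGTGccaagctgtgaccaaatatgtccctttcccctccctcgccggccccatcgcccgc
Pfkfb3, downstream start, chr2:11502091-11502340, minus strand: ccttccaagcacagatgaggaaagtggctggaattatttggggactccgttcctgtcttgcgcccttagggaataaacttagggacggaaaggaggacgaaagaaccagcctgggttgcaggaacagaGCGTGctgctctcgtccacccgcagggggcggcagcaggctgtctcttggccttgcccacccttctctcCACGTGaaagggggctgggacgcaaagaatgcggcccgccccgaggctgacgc
Ldha, upstream start, chr7:46845554-46845803, plus strand: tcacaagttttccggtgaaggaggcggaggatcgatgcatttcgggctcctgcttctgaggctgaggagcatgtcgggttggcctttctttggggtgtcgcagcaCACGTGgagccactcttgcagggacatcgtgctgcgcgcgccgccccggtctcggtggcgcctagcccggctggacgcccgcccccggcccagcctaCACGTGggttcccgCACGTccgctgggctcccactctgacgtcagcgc

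Slc2a1 held 1 ACGTG, 36 bases before the start, and 1 GCGTG on the other strand, 61 bases before it. Pfkl held 1 GCGTG and Pfkp held 3, while the Eno2 window held neither motif. The ACGTG matches in Ldha and in the downstream Pfkfb3 window include the palindrome CACGTG, which counts on both strands. ACGTG stood in a window of 43.2% of the 37 genes, against 18.5% of all 27025 genes with a promoter in the table. GCGTG stood in 70.3%, against 30.9%, and either motif in 89.2%, against 41.5%. Some genes have several windows (54 windows for the set, 32851 for all genes). Per window the shares were 37% against 16.6% for ACGTG, 57.4% against 28.2% for GCGTG and 79.6% against 38.6% for either. The comparison was not limited to genes tested here. The median GC content of the windows was 60% for the set and 52.4% for all windows, and its part in these shares was not tested. A match describes letters in the window and not a bound site.

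Uptake was led by Slc2a1 (ENSMUSG00000028645), which encodes the basal glucose transporter GLUT1. Slc2a1 had 246, 233, 246 and 205 CPM in PBS 1 to 4 and 312, 296, 289 and 309 CPM in rFSTL1 1 to 4. Every treated library lay above every control. The log2 fold change was 0.38 ± 0.05 (SE, n = 4 libraries per group), which is 1.297-fold, and edgeR gave it a Benjamini-Hochberg adjusted p of 0.00676. It ranked 7 of all genes by p, and it was called in 18 of 18 alternative analyses, with adjusted p from 2.86e-07 to 0.0395. Slc2a3, which encodes the high-affinity transporter GLUT3, had a log2 fold change of 0.03 ± 0.06 (adjusted p = 0.836). A non-coding antisense gene, Gm12868, overlaps exons of Slc2a1 in GENCODE M21 and has no row of its own in the table.

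Lactate leaves through the monocarboxylate transporters MCT4, encoded by Slc16a3 and typical of glycolytic cells, and MCT1, encoded by Slc16a1. Slc16a3 had 299, 299.5, 314 and 243 CPM under PBS and 337, 357, 365 and 388 CPM under rFSTL1. The groups did not overlap, and the lowest control was PBS 4. Its log2 fold change was 0.32 ± 0.07 with an adjusted p of 0.0542, so it missed the threshold, and its counts were not whole in 4 libraries. Slc16a3 was called in 8 of 18 alternatives, DESeq2 and limma voom among them. Slc16a1, the more abundant per length, had 437, 464, 438 and 424 CPM under PBS and 428, 421, 406 and 411 CPM under rFSTL1. Its groups overlapped in 1 library, rFSTL1 1, and its log2 fold change was -0.08 ± 0.04 (adjusted p = 0.336).

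Hexokinases trap glucose in the cell as glucose 6-phosphate. Hk2, the inducible and mitochondria-associated form, had 206, 195, 204 and 178 CPM under PBS and 228, 239, 222 and 229 CPM under rFSTL1. There was no overlap, and the log2 fold change of 0.23 ± 0.05 had an adjusted p of 0.0615. Hk1, the most abundant hexokinase per length, had 328, 322, 332 and 322 CPM under PBS and 364, 334, 367 and 386 CPM under rFSTL1. It too had no overlap (log2 fold change 0.15 ± 0.05, adjusted p = 0.146). Hk3, the myeloid form, had a log2 fold change of 0.17 ± 0.06 (adjusted p = 0.181) and groups that overlapped, and limma voom called it (adjusted p = 0.0423). Gpi1, the isomerase that makes fructose 6-phosphate, had 770.5, 735, 752 and 687 CPM under PBS and 801, 808, 842 and 875 CPM under rFSTL1 (log2 fold change 0.18 ± 0.04, adjusted p = 0.0993).

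Phosphofructokinase commits the sugar to glycolysis, and 2 of its 3 subunit genes rose. Pfkl (ENSMUSG00000020277), the liver-type subunit and the most abundant per length here, had 273, 250.03, 274 and 239 CPM under PBS and 305, 294, 313 and 322 CPM under rFSTL1. Every treated library was higher than every control, and the log2 fold change was 0.25 ± 0.05 (adjusted p = 0.0401 by edgeR with Benjamini-Hochberg adjustment). Pfkp (ENSMUSG00000021196), the platelet-type subunit, had 279, 254, 260.5 and 224 CPM under PBS and 313, 317, 296 and 318 CPM under rFSTL1. Its groups did not overlap either, and its log2 fold change was 0.29 ± 0.06 (adjusted p = 0.0366). The mean CPM under PBS was close for Pfkl (259) and Pfkp (254). Their order per length rests on longest transcripts of 3730 and 8681 bases. Pfkm, the muscle-type subunit, was lower in level, at 24.5 ± 1.80 CPM (SD, n = 4) under PBS and 25.5 ± 1.80 CPM under rFSTL1. Its log2 fold change was 0.06 ± 0.08 (adjusted p = 0.753), and it was -0.0114 once the trend with length and GC content was taken out.

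The counts of Pfkp were not whole in any of the 8 libraries, and the gene overlaps exons of Pitrm1 on the opposite strand. Pitrm1, a mitochondrial peptidase gene, had a log2 fold change of -0.01 ± 0.04 (adjusted p = 0.884). Whether the counting used strand is not given in the sources used here. Pfkl lost its call without any 1 of the PBS libraries or without rFSTL1 3, with adjusted p up to 0.245. Pfkp lost it without PBS 2, PBS 3, PBS 4, rFSTL1 1 or rFSTL1 3, with adjusted p up to 0.163.

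Pfkfb3 (ENSMUSG00000026773) encodes the kinase-dominant enzyme that makes fructose 2,6-bisphosphate, the strongest activator of phosphofructokinase. It had 93.0, 89.9, 85.9 and 78.3 CPM under PBS and 108, 104, 105 and 103 CPM under rFSTL1. The treated libraries lay close together and above all controls, and the log2 fold change was 0.27 ± 0.05 (adjusted p = 0.0345 by edgeR with Benjamini-Hochberg adjustment). The related Pfkfb2 (-0.03 ± 0.08, adjusted p = 0.886) and Pfkfb4 (-0.08 ± 0.09, adjusted p = 0.686) had negative log2 fold changes, and neither passed. Pfkfb3 lost its call without PBS 2, PBS 3, PBS 4, rFSTL1 1 or rFSTL1 3, with adjusted p up to 0.156.

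The aldolase to phosphoglycerate kinase steps had 4 genes between an adjusted p of 0.05 and 0.1. Aldoa, the main aldolase, had 1427, 1412, 1410.2 and 1357 CPM under PBS and 1536, 1533, 1655 and 1756 CPM under rFSTL1 (log2 fold change 0.21 ± 0.05, adjusted p = 0.0626, and 0.1049 with the trend taken out). Tpi1, triosephosphate isomerase, had 1243, 1230, 1216 and 1081 CPM under PBS and 1364, 1308, 1371 and 1360 CPM under rFSTL1 (0.18 ± 0.05, adjusted p = 0.0993, and 0.1074 with the trend taken out). In both, every treated library lay above every control.

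Gapdh, the NADH-producing dehydrogenase and a common reference gene, had 5183, 4964, 4927 and 4751 CPM under PBS and 5326, 5385, 5772 and 6167 CPM under rFSTL1 (0.19 ± 0.05, adjusted p = 0.0890). Pgk1, the first ATP-producing kinase of the pathway, had 1472, 1435, 1438 and 1271 CPM under PBS and 1577, 1689, 1603 and 1571 CPM under rFSTL1 (0.20 ± 0.05, adjusted p = 0.0789). DESeq2 and limma voom called Aldoa, Tpi1, Gapdh and Pgk1, as they did Hk1, Hk2 and Gpi1. The groups of Gapdh and of Pgk1 did not overlap, and PBS 4 was the lowest library of each. The counts of Gapdh were not whole in 8 of 8 libraries, and the retrocopies Gapdhrt and Gapdhrt2 held at most 64 and 28 counts. Aldoc, a minor aldolase, had a log2 fold change of 0.23 ± 0.06 (adjusted p = 0.137) with overlapping groups, and limma voom called it (adjusted p = 0.0332).

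Of the late steps, Eno2 rose. Eno2 (ENSMUSG00000004267), the gamma-enolase gene known best from neurons, had 37.2, 32.0, 36.1 and 29.6 CPM under PBS and 46.4, 41.8, 44.95 and 44.8 CPM under rFSTL1. All treated libraries were higher, and its log2 fold change of 0.40 ± 0.07 was the largest of the 37 genes (adjusted p = 0.0252 by edgeR with Benjamini-Hochberg adjustment). It lost its call without PBS 2, PBS 3, PBS 4 or rFSTL1 3, with adjusted p up to 0.129. Eno3, the muscle form, had a log2 fold change of 0.08 ± 0.09 (adjusted p = 0.714), and its sign turned with the correction for length and GC content. Per length, with Eno1b counted among the enolases, Eno2 held 0.661% ± 0.0503 of enolase RNA under PBS and 0.786% ± 0.0427 under rFSTL1 (SD, n = 4), without overlap. Without Eno1b the shares were 2.13% ± 0.192 and 2.54% ± 0.205, with overlapping groups. No test was run on them.

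The bulk of enolase RNA was alpha-enolase, which makes phosphoenolpyruvate, and its reads were divided between Eno1 and a near-identical copy, Eno1b (ENSMUSG00000059040). Neither had whole counts in any library. Eno1 had 1203, 1067, 1061 and 1089.8 CPM under PBS and 1190.4, 1070.5, 1292 and 1363 CPM under rFSTL1, with overlapping groups (log2 fold change 0.15 ± 0.06, adjusted p = 0.260, and 0.0579 with the trend taken out). From 30.3 to 34.5% of the joint count was assigned to Eno1. The sum of both was 3507, 3339.9, 3350.3 and 3222 CPM under PBS and 3599.6, 3530.4, 3843 and 3953 CPM under rFSTL1. On the sum, an alternative added after the data had been seen, the groups no longer overlapped, and the log2 fold change was 0.15 ± 0.04 (adjusted p = 0.135).

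**Figure D3:**
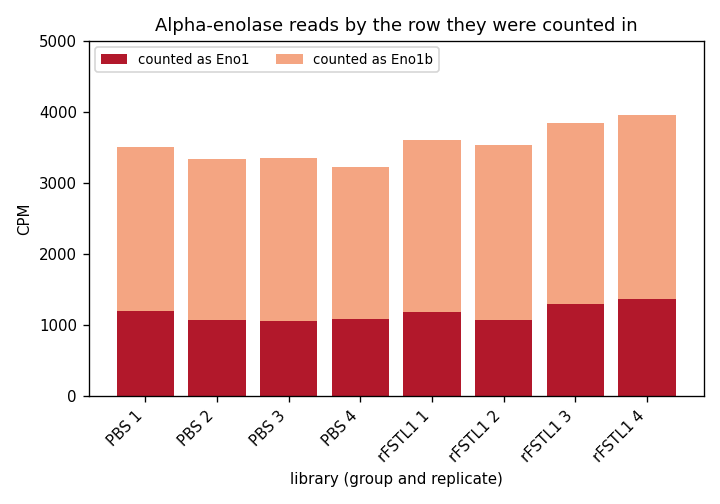
CPM counted as Eno1 (dark) and as Eno1b (light) in each of the 8 libraries, stacked to their sum. The dark part overlaps between the groups, and the summed bars are all taller under rFSTL1 than under PBS.

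Pgam1, phosphoglycerate mutase, had 1245, 1217, 1222 and 1178 CPM under PBS and 1288, 1286, 1323 and 1334 CPM under rFSTL1, without overlap (log2 fold change 0.11 ± 0.04, adjusted p = 0.201). Pkm, the muscle-type pyruvate kinase gene and the most abundant of the set, had 7742, 7422, 7417 and 7251 CPM under PBS and 7857, 8188, 8155 and 8329 CPM under rFSTL1. Its groups did not overlap either, and its log2 fold change was 0.12 ± 0.03 (adjusted p = 0.134). Ldha, which turns pyruvate into lactate, had 2474, 2312, 2275 and 2108 CPM under PBS and 2571, 2412, 2499 and 2559 CPM under rFSTL1. PBS 1 lay above rFSTL1 2, and the log2 fold change was 0.13 ± 0.05 (adjusted p = 0.207). Pgam1, Pkm and Ldha did not pass edgeR's test. DESeq2 called Pkm (adjusted p = 0.0203), and limma voom called Pkm (adjusted p = 0.0240) and Pgam1 (adjusted p = 0.0471). With the trend taken out, the log2 fold change was 0.0385 for Pkm, 0.0436 for Pgam1 and 0.0833 for Ldha.

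At the entry of pyruvate into mitochondria the values pointed in both directions, and none passed edgeR's test on the counts as normalized by TMM. Pdk1, a pyruvate dehydrogenase kinase, had 80.5, 79.3, 74.3 and 71.4 CPM under PBS and 90.1, 91.4, 81.2 and 84.5 CPM under rFSTL1 (log2 fold change 0.18 ± 0.05, adjusted p = 0.145). Its groups did not overlap. Pdk1 was called once the trend with length and GC content was taken out (log2 fold change 0.2108, adjusted p = 0.0356), and also with the replicate block added (0.2128, adjusted p = 0.0228). Pdk3, the more abundant kinase per length, had 50.9, 50.1, 47.1 and 47.3 CPM under PBS and 51.9, 52.5, 49.7 and 45.6 CPM under rFSTL1 (0.03 ± 0.06, adjusted p = 0.828). Pdk2 stayed at or below 1.15 CPM in every library (0.13 ± 0.38, adjusted p = 0.895).

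Pdha1, the catalytic alpha subunit of pyruvate dehydrogenase that these kinases phosphorylate, had 107, 108, 107 and 109.5 CPM under PBS and 100.3, 103, 103 and 99.2 CPM under rFSTL1. Every treated library was lower than every control, by a log2 fold change of -0.09 ± 0.04 (adjusted p = 0.295). Pdhb, the beta subunit, had 111, 108, 111 and 111 CPM under PBS and 118, 117, 118 and 113 CPM under rFSTL1. Its groups did not overlap in the other direction (0.08 ± 0.04, adjusted p = 0.340). The percent difference was -5.96% for Pdha1 and 5.75% for Pdhb, and neither passed the test.

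The pentose phosphate enzymes had small differences. G6pdx, the NADPH-producing dehydrogenase that opens the branch, had 239, 233, 223 and 237 CPM under PBS and 237, 214, 229 and 245 CPM under rFSTL1, a log2 fold change of -0.01 ± 0.05 (adjusted p = 0.924). Pgd, the next NADPH-producing enzyme, had a log2 fold change of 0.02 ± 0.04 (adjusted p = 0.867). Transketolase (Tkt) had 0.07 ± 0.04 (adjusted p = 0.450), and transaldolase (Taldo1) 0.07 ± 0.04 (adjusted p = 0.407), which became -0.0146 with the correction for length and GC content.

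Pgls, the lactonase, had the largest standard error of the log2 fold change in the branch. Its level was 53.0, 49.9, 50.1 and 49.0 CPM under PBS and 46.6, 45.6, 62.3 and 70.0 CPM under rFSTL1, so 2 treated libraries lay below all controls and 2 above (0.16 ± 0.11, adjusted p = 0.488). Its counts were not whole in 7 libraries, and it overlaps exons of Fam129c. Rpia, the ribose 5-phosphate isomerase, had a log2 fold change of 0.05 ± 0.06 (adjusted p = 0.724). Rpe, the epimerase, had a log2 fold change of -0.14 ± 0.08 (adjusted p = 0.411), which was -0.0501 with the trend taken out, and counts that were not whole in 8 libraries.

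Levels of different genes were compared as CPM per kilobase of the longest transcript (3289 bases for Gapdh and 2432 for Pkm). Orders and shares on this scale depend on the length taken, and other transcript lengths were not tried. On that scale Pkm led under PBS with 3067, followed by Gapdh with 1507, Ldha with 1263, Aldoa with 905, Pgk1 with 769 and Tpi1 with 742. The called genes ranked 16 to 31 of 38, with Slc2a1 at 71.3, Pfkl at 69.4, Pfkp at 29.3, Pfkfb3 at 18.1 and Eno2 at 12.1. These 6 genes all had positive fold changes, and edgeR with TMM, the minimum count of 10 and all 8 libraries called none of them at an adjusted p under 0.05. DESeq2 and limma voom each called 5, namely Pkm, Gapdh, Aldoa, Pgk1 and Tpi1. Over all genes they called 192 of 9298 and 454 of 10748. Other edgeR settings called Aldoa, Gapdh and Pgk1 (every gene of at least 1 count), Gapdh and Pgk1 (the trend with length and GC content taken out, with or without the replicate block), and Aldoa and Gapdh (without rFSTL1 1, and without rFSTL1 2). Over all genes these settings called, in that order, 127 of 14720, 74 of 10748 (71 with the block), 99 of 10830 and 90 of 10819. The order takes Eno1 by its own row (545 per kilobase), and with the copy Eno1b alpha-enolase came to 1801, which would place it after Pkm.

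On the per-length scale, each share was taken over the family's genes in the set, with Eno1b added only where named. Tested relatives outside the set were left out. Under PBS, Slc2a6 had a mean of 112 CPM, against 50.5 for Slc2a3. Slc16a7 had 13.9, Pfkfb1 4.64 and Slc2a8 4.10. Shares without overlap between the groups were seen for GLUT, MCT, PFKFB and PDK genes, for Pfkm among the phosphofructokinases, and for Eno2 once Eno1b is counted. No test was run on these shares. GLUT1 (Slc2a1) held 89.8% ± 1.16 (SD, n = 4) of the Slc2a1 and Slc2a3 pair under PBS and 91.8% ± 0.291 under rFSTL1, without overlap. MCT4 (Slc16a3) held 40.0% ± 2.34 of the MCT pair under PBS and 47.0% ± 1.95 under rFSTL1, also without overlap, as Slc16a3 and Slc16a1 differed in sign. Pfkfb3 held 60.8% ± 1.73 of the Pfkfb2, Pfkfb3 and Pfkfb4 total under PBS and 66.3% ± 1.88 under rFSTL1. Pdk1 held 38.5% ± 0.659 and 41.1% ± 1.31 of the Pdk1, Pdk2 and Pdk3 total. For Pfkfb3 and Pdk1, and for Pdk3, the groups did not overlap, while they did for Pfkfb2, Pfkfb4 and Pdk2.

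The hexokinase shares overlapped for all 3 genes, with Hk2 at 21.5% ± 0.924 under PBS and 22.4% ± 1.67 under rFSTL1. Pfkl held 64.7% ± 0.673 and 64.9% ± 1.08 of phosphofructokinase RNA, and Pfkp 27.3% ± 0.951 and 28.1% ± 1.12, both with overlap. Pfkm made up 7.95% ± 0.342 under PBS and 6.95% ± 0.313 under rFSTL1, without overlap. Aldoa held 97.9% ± 0.138 and 97.8% ± 0.118 of the aldolase pair, and Eno1 96.4% ± 0.294 and 96.1% ± 0.357 of enolase without Eno1b.

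**Figure D4:**
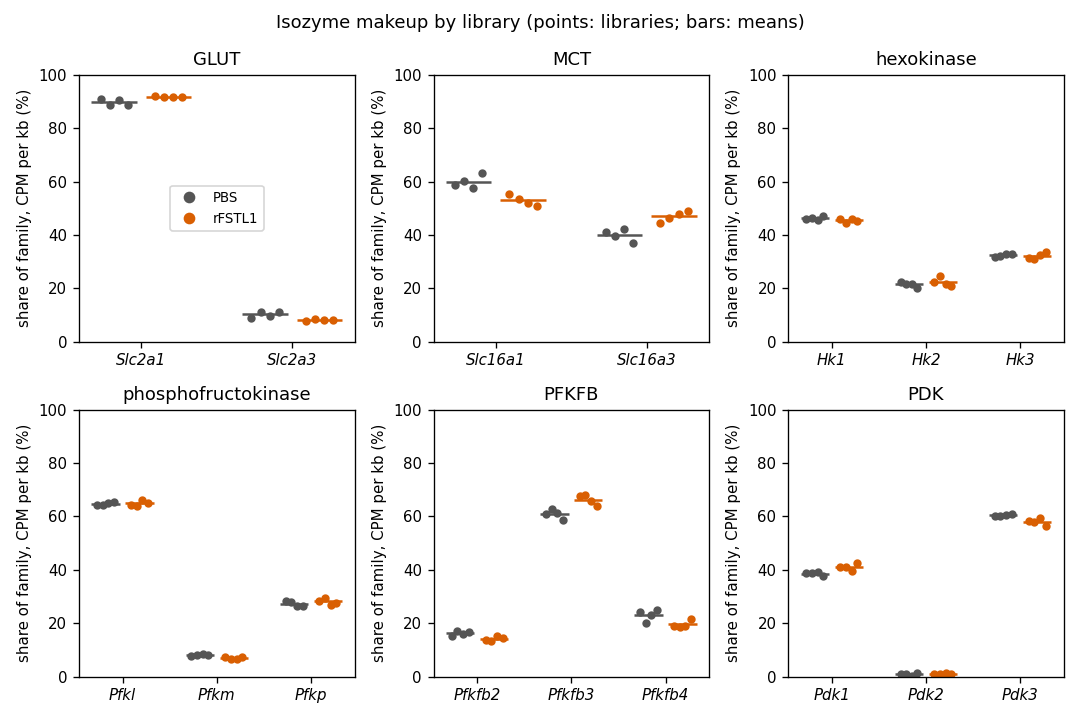
Share of each isozyme among its family's genes in the set (y axis, percent of CPM per kilobase of longest transcript) in the 4 PBS (grey) and 4 rFSTL1 (orange) libraries. Points are libraries and bars are means. Relatives outside the set, such as Slc2a6 and Pfkfb1, are not counted. The clouds separate for Slc2a1, Slc2a3, Slc16a1, Slc16a3, Pfkm, Pfkfb3, Pdk1 and Pdk3, and overlap for the 3 hexokinases.

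Neighbouring steps of the same pathways gave a comparison list of 62 genes, of which 43 were tested. None was called by edgeR, 4 had an unadjusted p under 0.05, DESeq2 called 1 and limma voom called 2. Over all genes, edgeR called 37 of 10748, DESeq2 192 of 9298 and limma voom 454 of 10748. The neighbours' calls are near this background. The unadjusted limit was loose here, as Pdha1, ranked 1562 of all 10748 genes by p, also passed it. The neighbours' 4 of 43 is therefore not an excess over all genes. Of the 43, 23 had a positive fold change, and the median log2 fold change was 0.0083. The 15 genes of the TCA cycle had a median of -0.0038, the 9 genes of pyruvate entry -0.04, the 7 gluconeogenic and shuttle genes 0.03, the 7 further isozymes and transporters 0.05 and the 5 genes of sugar phosphate side steps 0.10. Every treated library lay above every control for 1 of the 43 (Bsg) and below for 1 (Pdpr), against 4.63% and 3.53% of all genes.

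Bsg, basigin, the membrane partner that carries monocarboxylate transporters to the cell surface, had 325, 318, 327 and 301 CPM under PBS and 361, 352, 366 and 376 CPM under rFSTL1 (log2 fold change 0.19 ± 0.04, adjusted p = 0.0585 by edgeR with Benjamini-Hochberg adjustment). Dld, the dihydrolipoamide dehydrogenase of the pyruvate dehydrogenase complex, had a log2 fold change of -0.17 ± 0.06 (adjusted p = 0.201), and the mitochondrial Pck2 one of 0.25 ± 0.10 (adjusted p = 0.239). These are the 3 neighbours with the smallest p.

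**Figure D5:**
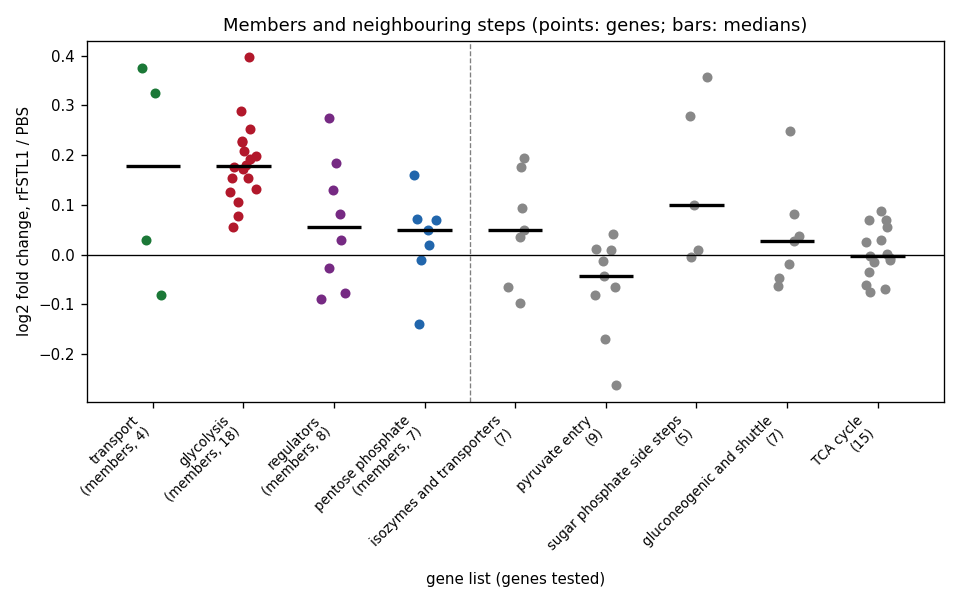
Log2 fold change of rFSTL1 over PBS (y axis) for each gene tested (points), by branch of the set (left, coloured) and by list of neighbouring genes (right, grey); bars are medians and the number tested stands under each name. The glycolytic enzymes all lie above 0 with a median of 0.18 (without Pfkm and Eno3 once a trend with length and GC content is taken out), and the TCA cycle genes lie on both sides with a median of -0.0038.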

How the data were processed

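RNA-seq of RAW264.7 cells was compared between 4 PBS and 4 rFSTL1 libraries, with groups and replicate numbers taken from the sample labels. The authors deposited expected counts (estimated counts) per Ensembl gene, without normalization, of which 13% of the nonzero values were not whole. The submitters' processing notes name Bowtie2 2.2.8, HISAT2, StringTie 1.3.1 and DESeq2, while the genome build, annotation, strand setting and the role of each tool are not given in the sources used here. A symbol was missing for 112 rows, and no row was a total. Reads shared by paralogs or overlapping genes can be split between rows, and counts were not whole for Eno1, Gapdh, Pfkp and Rpe in 8 libraries, Pgls in 7, Slc16a3 in 4, and Pfkfb2 and Pdha1 in 1 each.

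Counts were rounded, filtered with filterByExpr (minimum count 10), scaled by TMM and tested with the quasi-likelihood test of edgeR 4.0.16 in R 4.3.3, with Benjamini-Hochberg adjustment over all 10748 genes tested and a threshold of 0.05. The design had assumed whole counts. CPM values use the TMM-scaled library sizes. Standard errors follow from each gene's log2 fold change divided by the square root of its F value. No pair of libraries within a group agreed within sampling noise (chi-square per degree of freedom 3.05 to 4.23 between PBS libraries and 4.51 to 19.1 between rFSTL1 libraries, so the treated libraries were less alike). Levels per length used the longest GENCODE M21 transcript, and promoters came from RefSeq on GRCm38.p6.

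The set of genes, the neighbouring genes and the markers were chosen with earlier results of these data known. All genes of the set are named. Values in every library are given where the adjusted p was under 0.05, where the groups did not overlap, or where the gene was the most abundant of its family per length, and for Pgls and G6pdx, chosen after their values were seen. Neighbours are named where called, otherwise the 3 with the smallest p, and Pdpr and Bsg as the genes without overlap. Alternatives were DESeq2 1.42.0, limma 3.58.1 (voom with sample quality weights), other scalings, filters and thresholds, a replicate block, a correction for transcript length and GC content (splines, 4 degrees of freedom), and leaving out each library. Library totals ran from 15062026 to 20234472 counts, a depth that limits the precision for Ldhb and Pdk2.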

Additional observations from a re-analysis of the deposited data

Results flagged for a closer look

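Each gene of the set was examined in each group of 4 libraries for a library standing far from the other 3. Of 74 groups examined, 3 held such a library, where chance gives about 3.7 (1 in 20). Tpi1 was at 1081 CPM in PBS 4, against 1216 to 1243 CPM in the other PBS libraries. Pdk2 was at 0.247 CPM in PBS 3, against 0.972 to 1.12 CPM in the others. Taldo1 was at 163 CPM in rFSTL1 1, against 174 to 175 CPM in the others.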

How the results depend on the processing

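The 37 genes and the 5 of the set called by edgeR at an adjusted p under 0.05 became 192 genes (131 higher, 61 lower) and 14 of the set with DESeq2, 454 (244 higher, 210 lower) and 17 with limma voom, 56 and 7 with upper-quartile scaling, 127 (101 higher, 26 lower) and 10 with every gene of at least 1 count, and 133 (111 higher, 22 lower) and 12 at an adjusted p under 0.1. Taking out the trend with length and GC content gave 74 (63 higher, 11 lower) and 11, with a median log2 fold change of the set of 0.0678, and with the replicate block as well 71 and 10, with a median of 0.0703. Leaving out 1 library gave 11 to 99 genes, 1 to 10 of the set and a median of 0.1133 to 0.1622. Neighbouring genes went from 0 called to 1 (Bsg) with DESeq2, upper-quartile scaling, every gene of at least 1 count and an adjusted p under 0.1, to 2 (Bsg and Dld) with limma voom, and to 0 to 1 with 1 library left out. All genes of the set called in any of these were higher under rFSTL1. Replicate numbers did not pair the libraries (correlations of deviations -0.0338 to 0.0136), and no rFSTL1 library was the closest match of the PBS library of its number. The replicate block gave 41 genes and the same 5 of the set. Signs turned, with no call, for Pfkfb2 (0.0189 with limma voom), and with that trend taken out for Pfkfb2 (0.0073, and 0.004 with the block), Pfkm (-0.0114 and -0.0102), Eno3 (-0.0076 and -0.0072) and Taldo1 (-0.0146 and -0.0149). With 1 library left out, the values of the genes whose sign turned ran from -0.0151 to 0.0866 for Slc2a3, from -0.0749 to 0.0053 for Pfkfb2, from -0.2103 to 0.2911 for Pdk2, from -0.0025 to 0.0727 for Pdk3, from -0.0401 to 0.0156 for G6pdx, from -0.0071 to 0.042 for Pgd and from -0.0074 to 0.0697 for Rpia. The cause was not tested. Pdk2 had no value at a minimum count of 30, where it was filtered out. Depth limits Pdk2 and Ldhb.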
